A study of Mus musculus with 10 samples.

Results

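The genes examined here were 40 listed mouse genes for axon guidance ligands and receptors, out of 26089 genes of the curated RefSeq annotation of mm10, all 40 of which were matched by symbol. They comprised 16 ligand genes, 22 receptor genes and 2 genes of contactin adhesion molecules. A gene was assigned a peak of the transcription factor REST when the peak overlapped the gene body or lay within 5 kb of one of its transcription start sites. The question was whether REST peaks occurred at these genes in the cortex of WT and 3xTg mice, how often relative to all genes, and in which of the 2 genotypes.

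REST binding had been profiled by ChIP-seq, the sequencing of DNA that is precipitated with a protein, in bulk cortex from female mice aged 11 months, with 4 WT and 4 3xTg replicates, each a pool of 4 cortices, and 1 input library per genotype. The 3xTg strain, used to model Alzheimer's disease, carries transgenes for human APP with the Swedish mutation (APPSwe) and human tau with the P301L mutation (tauP301L) together with a knock-in allele of presenilin 1 (PS1) on a hybrid background of C57BL/6J and 129Sv/Ev, and the WT mice were their littermate controls. The antibody recognizes the C-terminal region of REST. Each genotype is represented by 1 deposited peak list that combines its replicates, so no value below has a spread over replicates, no test between genotypes can be made from the lists, and the cell types that contributed chromatin cannot be read from the lists.

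Axon guidance cues are secreted or membrane-bound proteins that attract or repel growing axons. Slits act on Robo receptors, netrins on Dcc, neogenin and the Unc5 receptors, semaphorins on plexins and neuropilins, and ephrins on Eph receptor tyrosine kinases, and many of these pairs also act at synapses of the adult brain. REST, also called NRSF, is a zinc finger repressor that binds the RE1 element, best known at genes used by neurons. The core of RE1 as searched here was 2 blocks of letters, TCAGCACC, then 2 free bases, then GGACAGC, on both strands. A sequence with at most 3 mismatches over these 15 fixed letters counted as a core.

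Of the 40 genes, 8 had a WT peak and 10 had a 3xTg peak, from lists of 3006 and 5077 peaks. With the 3xTg list limited to as many peaks as the WT list, by score, the counts were 8 and 5, against 9.30% and 9.09% of all genes. Robo2, Unc5a, Unc5c, Unc5d, Sema3a, Epha5 and Cntn4 had one in both lists, Plxna2 in the WT list alone, and Slit3, Neo1 and Cntn2 in the 3xTg list alone. The WT share was 20% (95% Wilson interval 10.5 to 34.8%) against 9.30% of all genes, and the 3xTg share was 25% (14.2 to 40.2%) against 14.2% of all genes. The intervals cover counting error only, and genes are not replicates of a genotype. A peak in at least 1 list was found at 11 genes (27.5%), against 15.7% of all genes, and the other 29 (72.5%) had none in either list, against 84.3%.

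The sequences shown first are a run of RE1 blocks under the Unc5a peak, a repeat under the strongest Robo2 peak, and near-perfect cores in gene bodies, none of them under a summit. All are from mm10, read 5′ to 3′ on the strand named. In the Unc5a stretch (chr13:54971030-54971103, plus strand), the capitals mark exact matches to both RE1 blocks.

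Unc5a: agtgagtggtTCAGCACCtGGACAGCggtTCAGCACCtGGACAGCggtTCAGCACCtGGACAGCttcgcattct

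The next stretch holds 3 units of a tandem repeat in Robo2 (chr16:74174372-74174494, plus strand), with the middle unit of 41 bases in capitals.

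Robo2 repeat: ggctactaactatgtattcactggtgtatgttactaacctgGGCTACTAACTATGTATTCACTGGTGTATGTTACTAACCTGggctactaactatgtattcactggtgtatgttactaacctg

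The following cores in gene bodies are shown because they are the best matches to RE1 at the 40 genes anywhere in the genome, with capitals on the 2 blocks. Unc5d core A (chr8:29017412-29017438, plus strand) has no mismatch. Unc5d core B (chr8:28760591-28760617, plus), core C (chr8:28881237-28881263, plus), and the cores of Ephb1 (chr9:102066732-102066758, plus), Slit1 (chr19:41661173-41661199, minus) and Unc5c (chr3:141811572-141811598, plus) have 1 mismatch each.

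Unc5d core A: attttTCAGCACCctGGACAGCacaaa
Unc5d core B: gggaaTCAGCACCgtGGACAGAggcaa
Unc5d core C: gagtaTCAGCACCatGGTCAGCtctaa
Ephb1 core: ctcttTCAGCACCacGGCCAGCgcccc
Slit1 core: gagatTCAGGACCagGGACAGCtctct
Unc5c core: ctggaTCAGCACCaaGGACAGAgcaaa

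The peaks were compared within each list by their fold enrichment, the ratio of ChIP signal to local background that the authors' peak caller gave. The WT list held 3006 peaks from 6.0 to 68.6 in fold enrichment and the 3xTg list held 5077 peaks from 8.50 to 69, so the weakest peak that could be listed differed between genotypes. The 40 genes held 13 WT peaks with a median fold enrichment of 7.0, against 7.28 over all WT peaks. They held 17 3xTg peaks with a median of 11.0, against 10.8 over all 3xTg peaks. Of the 13 WT peaks, 10 lay under the lowest fold enrichment of the 3xTg list (76.9%, against 68.4% of all WT peaks), a value at which the 3xTg list has no peaks.

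**Figure D1:**
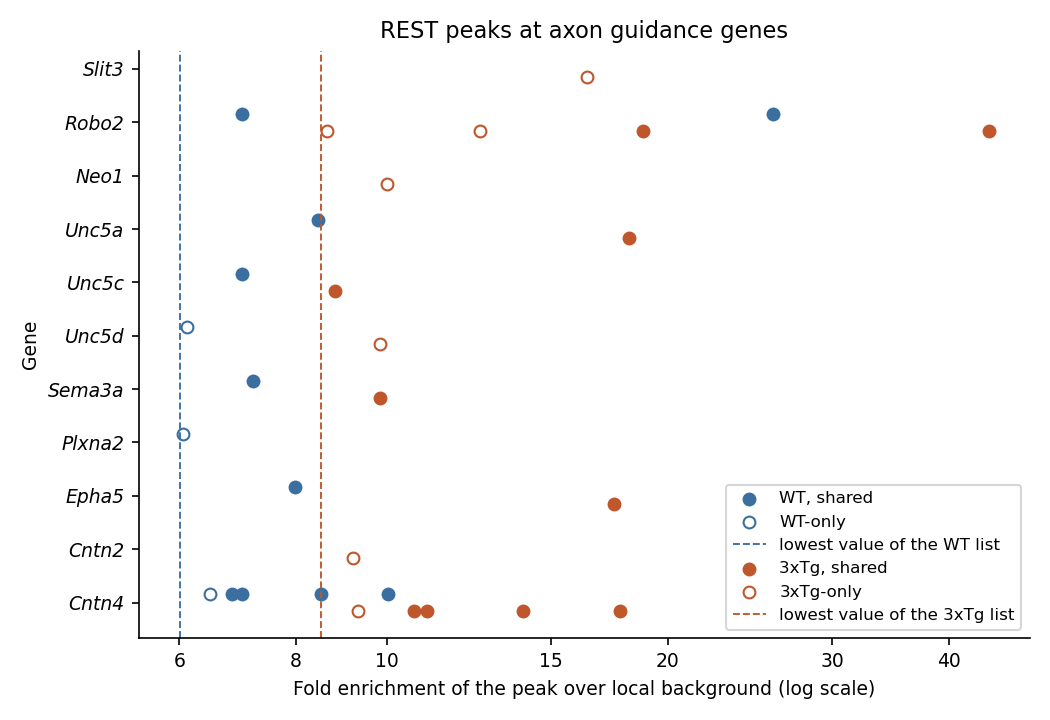
Fold enrichment over local background (log scale) of every REST peak at the 11 genes that had one, in the WT list (blue) and the 3xTg list (orange). Filled points overlap a peak of the other list, open points do not, and dashed lines mark the lowest value of each list; Robo2 holds the highest point of either list, at 25.9 in WT and 44.2 in 3xTg.

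Among the ligands, 1 of 16 genes had a WT peak and 2 had a 3xTg peak, against 9.30% and 14.2% of all genes. Sema3a, a secreted semaphorin that repels axons through neuropilin and plexin, lies on the plus strand of chromosome 5 (chr5:13396784-13603485). Its peak was in intron 13 of 17 of the longest transcript covering it (here and below, introns are counted in that transcript), 175 kb from the nearest Sema3a start site, with a fold enrichment of 7.19 in WT (rank 1598 of 3006) and 9.84 in 3xTg (rank 3340 of 5077). The summits of this pair were 64 bases apart. The best RE1 core in the peak had 4 mismatches and lay 22 bases from the WT summit and 42 from the 3xTg summit.

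Sema3a best core: tgggaTCAGCAGGttGAAAAGCtttgc

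This sequence (chr5:13574293-13574319, plus strand) is shown as the nearest approach to RE1 at a ligand peak, and it missed the limit of 3 mismatches. Slit3, a secreted Robo ligand, lies on the plus strand of chromosome 11 (chr11:35121456-35708507). It had a 3xTg-only peak in intron 9 of 35 (chr11:35587016-35587725) with a fold enrichment of 16.4 and rank 838 of 5077. This was the highest fold enrichment among the 3xTg-only peaks of the 40 genes, and the nearest WT peak was 211 kb away. The summit lay 466 kb from the Slit3 start site and 29.4 kb from the nearest start site of any gene, that of Mir218-2, a microRNA gene.

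No peak of either list was assigned to the Robo ligands Slit1 and Slit2, the netrins Ntn1 and Ntn4, the semaphorins Sema3c, Sema3f, Sema4d, Sema5a, Sema6a and Sema6d, or the ephrins Efna3, Efna5, Efnb2 and Efnb3. None of the 4 listed ephrin genes therefore had a peak, against 15.7% of all genes with a peak in either list. At that share, 4 genes are too few to tell ephrin genes from all genes.

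Of the 22 receptor genes, 6 had a WT peak and 6 had a 3xTg peak, against 9.30% and 14.2% of all genes. Robo2, a Slit receptor, spans 1555 kb on the minus strand of chromosome 16 (chr16:73892306-75447293), the longest of the 40 genes. It had 2 WT peaks and 4 3xTg peaks. The strongest lay in intron 3 of 29 at chr16:74174151-74175264 in WT, with a fold enrichment of 25.9 (rank 59 of 3006), and at chr16:74174045-74175334 in 3xTg, with 44.2 (rank 45 of 5077). The next highest rank at the 40 genes was 597 in WT, at Cntn4, and 575 in 3xTg, at another Robo2 peak. The nearest start site of Robo2 was 237 kb away, and the nearest of any gene, that of Mir691, 167 kb.

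This peak lay on the tandem repeat shown above. The unit of 41 bases was repeated without a mismatch over 737 bases (chr16:74174372-74175108), which is 66.2% of the WT peak and 57.1% of the 3xTg peak, and both summits were inside it. At 90% identity between neighbouring units the repeat extended over 922 bases. The best RE1 match in the peak had 7 mismatches. A tandem repeat of at least 3 exact units and at least 100 bases was present in 2.69% of the whole WT list and in 2.42% of the whole 3xTg list. It was present in 12 of the 100 WT peaks and 13 of the 100 3xTg peaks with the highest fold enrichment. At the 40 genes it was present in 1 of 13 WT peaks and 2 of 17 3xTg peaks. The second was a 3xTg-only Robo2 peak in intron 2 (chr16:75012602-75013259, fold enrichment 12.6, rank 1666), with a unit of 73 bases repeated over 286 bases around the summit. The part of the repeats in these values was not tested. Without peaks on tandem repeats, a setting added after the data were seen, Robo2 still had a peak in both lists, and the counts of genes were the same.

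Robo2 also had a shared peak near a second, internal start site at 75092770. In WT it lay at chr16:75090501-75091151, its summit 1.88 kb from that start site, with a fold enrichment of 7.0 (rank 1743). In 3xTg it lay at chr16:75090012-75092099, with 18.8 (rank 575). The 3xTg peak was 3.21 times as wide as the WT peak, and its edge, but not that of the WT peak, came within 1 kb of the start site. Another 3xTg-only peak lay at the low end of the list with a fold enrichment of 8.63 (rank 4881). At the most upstream Robo2 start site no peak was listed, although the promoter window held a core with 2 mismatches centred 70 bases upstream of it (chr16:75447350-75447376, minus strand). The nearest summits were 356 kb away in WT and 215 kb away in 3xTg.

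Robo2 promoter core: tacccTTAGCACCacGGACAGAgcact

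Unc5a, a netrin receptor that mediates repulsion, lies on the plus strand of chromosome 13 (chr13:54949411-55006018). Its shared peak was in intron 1 of 14, 21.7 kb from the start site, at chr13:54970907-54971390 in WT and chr13:54970663-54971574 in 3xTg. Its fold enrichment was 8.44 in WT (rank 965) and 18.2 in 3xTg (rank 628), with the summits 10 bases apart. The stretch shown above lay under both summits. It holds 3 exact copies of both RE1 blocks in a row, with 1 free base between the blocks in place of 2, and the copies were 6 to 32 bases from the WT summit and 3 to 22 bases from the 3xTg summit by their centres. The bases between the copies are also the same, so the copies form 1 short tandem repeat and are not separate matches. This repeat is under the limit of 100 bases, so the Unc5a peak was not counted among the peaks on tandem repeats. Blocks with at most 1 mismatch at this spacing occurred in 4 of the 3006 peaks of the WT list (0.133%) and in 4 of the 5077 of the 3xTg list (0.0788%). At the spacing of 2 they occurred in 125 (4.16%) and 149 (2.93%). At least 3 such matches, at any spacing of 0 to 10 free bases, were found in 14 WT peaks (0.466%) and 14 3xTg peaks (0.276%). The search at other spacings was added after the data were seen.

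At the standard spacing, the wider 3xTg peak of Unc5a held a core with 3 mismatches, 346 bases from the summit (chr13:54971403-54971429, minus strand), and the WT peak had 4 mismatches at best.

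Unc5a 3-mismatch core: gagagTCTCCACCctGGACGGCccttg

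Unc5c and Unc5d, further netrin receptors, had weaker peaks. The shared Unc5c peak, in intron 1 of 16, had a fold enrichment of 7.0 in WT (rank 1770) and 8.80 in 3xTg (rank 4659), near the lowest value of the 3xTg list. Unc5d had a WT-only peak in intron 1 with a fold enrichment of 6.11 (rank 2770) and a 3xTg-only peak in intron 2 with 9.84 (rank 3358), the nearest edges of which were 125 kb apart. Both lists thus had a peak at Unc5d, but not at the same place. Neo1, which encodes the netrin receptor neogenin, had a 3xTg-only peak in intron 7 of 27 with a fold enrichment of 10 (rank 3210), 349 kb from the nearest WT peak. Plxna2, a semaphorin co-receptor with neuropilins, was the only one of the 40 genes with a peak in the WT list alone, in intron 1 of 31, 10.8 kb from the start site, with a fold enrichment of 6.05 (rank 2799).

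Epha5, an ephrin-A receptor, lies on the minus strand of chromosome 5 (chr5:84054761-84417382). Its shared peak was in intron 1 of 15 and had a fold enrichment of 7.98 in WT (chr5:84414825-84415446, rank 1118) and 17.5 in 3xTg (chr5:84413949-84416821, rank 688). The summits were 2.26 and 2.24 kb from the start site. The 3xTg peak was 2873 bases wide, 4.62 times the width of the WT peak, and the 3xTg peak alone reached within 1 kb of the start site. The best core in the peak had 4 mismatches (chr5:84415040-84415066, plus strand), and the capitals mark its blocks.

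Epha5 best core: ccagcTCAGCGTCttCTACAGCagact

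No peak of either list was assigned to the Slit receptors Robo1 and Robo3, the netrin receptors Dcc and Unc5b, the plexins Plxna1, Plxna4, Plxnb1 and Plxnd1, the neuropilins Nrp1 and Nrp2, or the Eph receptors Epha3, Epha4, Epha7, Ephb1 and Ephb2. Robo2 was thus the 1 Robo gene of 3 listed with a peak, and Epha5 the 1 Eph receptor gene of 6 listed. By family, a peak in either list, which 15.7% of all genes had, was found at 2 of 6 Slit and Robo genes, 4 of 8 netrin system genes, 2 of 14 semaphorin, plexin and neuropilin genes, 1 of 10 ephrin and Eph genes, and both contactin genes.

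Both contactin genes had a peak. Cntn4, which encodes an immunoglobulin superfamily adhesion protein of axons, spans 1022 kb on the plus strand of chromosome 6 (chr6:105677667-106700135) and held 5 peaks in each list, 4 of them shared. The strongest shared peak lay in intron 2 of 24 (chr6:105847117-105847688 in WT and chr6:105847041-105847845 in 3xTg), with a fold enrichment of 10 in WT (rank 597) and 17.8 in 3xTg (rank 664). A second covered an internal start site at 106118942, from chr6:106118502-106119302 in WT to chr6:106118115-106119474 in 3xTg. Its summit lay 83 bases from that start site in WT and 119 bases in 3xTg, with fold enrichments of 6.83 (rank 1870) and 14.0 (rank 1276). Cntn4 was the only one of the 40 genes with a peak within 1 kb of a start site in both lists. The sequence of 100 bases around the 3xTg summit of this peak (chr6:106119011-106119110, plus strand) is printed because it is the summit nearest to a start site of any of the 40 genes in the 3xTg list.

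Cntn4 start-site summit: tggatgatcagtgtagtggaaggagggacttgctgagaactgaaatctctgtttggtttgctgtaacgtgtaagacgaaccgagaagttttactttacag

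The best core in this peak had 5 mismatches. The remaining shared Cntn4 peaks were both in intron 8. The stronger in WT lay at chr6:106499173-106499560 with a fold enrichment of 8.51 (rank 943), and at chr6:106499116-106499890 in 3xTg with 11.0 (rank 2428). The other had 7.0 in WT and 10.7 in 3xTg. A WT-only peak there (fold enrichment 6.47) lay 105 bases from the edge of the last of these 3xTg peaks, and a 3xTg-only peak lay in intron 13 (fold enrichment 9.32). Cntn2, also called TAG-1, an adhesion protein of early axons and of the axon next to the node of Ranvier, had a 3xTg-only peak in intron 1 of 22 with a fold enrichment of 9.20 (rank 4052), 4.90 kb from the start site.

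**Figure D2:**
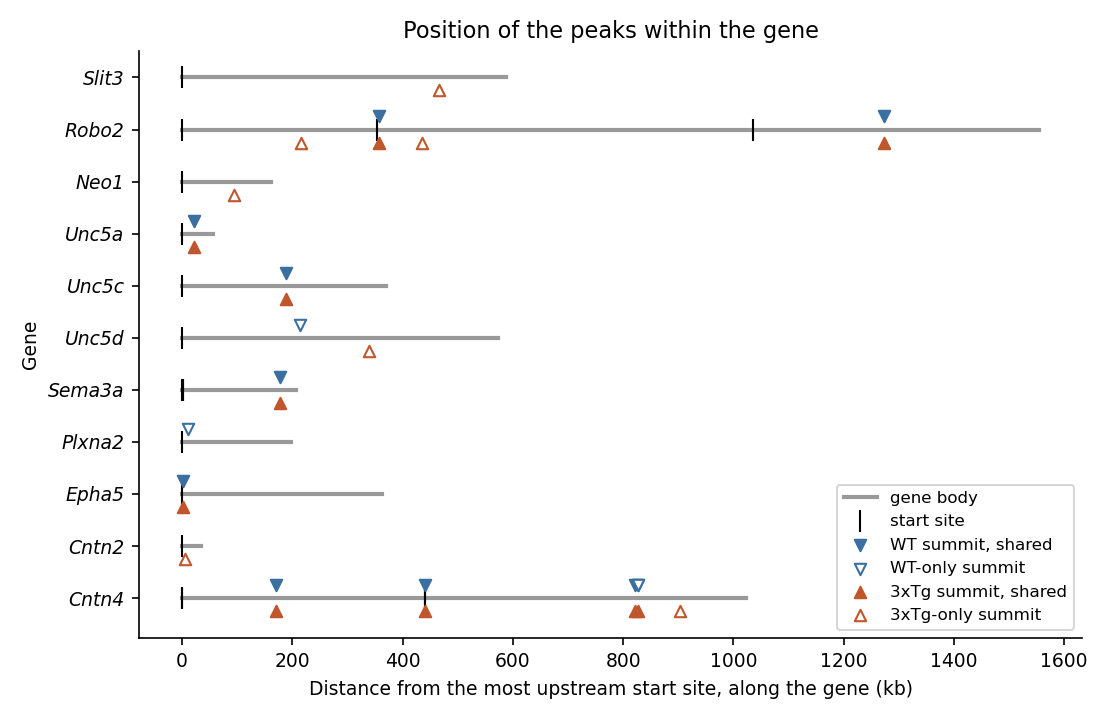
Position of each peak summit along the gene, as distance in kb from the most upstream start site, for the 11 genes with a peak (WT triangles point down, 3xTg triangles point up, filled for shared peaks). All 30 summits lie within gene bodies, and those of Robo2 and Cntn4 next to a start site lie at internal start sites, 356 and 441 kb downstream of the most upstream one.

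All 13 WT and 17 3xTg summits lay in introns. Of these, 5 WT and 4 3xTg summits were in intron 1. Over 100 kb from every start site of the gene they were in lay 8 WT and 10 3xTg summits. No such count over all peaks stands beside these, so they are not read as particular to the 40 genes. Near start sites the 40 genes were close to all genes. Within 5 kb, 3 genes had a WT peak (Robo2, Epha5 and Cntn4, 7.5%, interval 2.58 to 19.9%, against 6.72% of all genes). A 3xTg peak was there at 4 (Cntn2 in addition, 10%, 3.96 to 23.1%, against 9.87%). Within 1 kb, 1 gene had a WT peak (Cntn4, 2.5%, 0.443 to 12.9%, against 5.32%). A 3xTg peak was there at 3 (Cntn4, Robo2 and Epha5, 7.5%, 2.58 to 19.9%, against 7.84%). These intervals are wide and allow shares well under or over those of all genes. None of the 16 ligand genes had a peak within 5 kb of a start site in either list. A count of 0 allows up to 3 counts, here a share of 18.8%.

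The share of genes with a peak thus exceeded that of all genes once gene bodies were counted. In WT the interval (from 10.5%) lay above the share of all genes (9.30%). In 3xTg it reached down to that share (both 14.2%). The 40 genes are long. Their median span was 159 kb, against 13.5 kb over all genes, and 29 of them span 100 kb or more. Among these 29, 7 had a WT peak (24.1%, 95% Wilson interval 12.2 to 42.1%), against 24.9% of all genes of 100 kb and over. In the 3xTg list 8 of the 29 had a peak (27.6%, 14.7 to 45.7%), against 39.2%. This class has no upper limit and does not match length fully. The median span in it was 278 kb for the 29 genes and 169 kb for all genes. Of the 8 genes from 20 to 100 kb, Unc5a had a WT peak and Unc5a and Cntn2 had a 3xTg peak (12.5% and 25%), against 10.7% and 16.8% of all genes of that length. The 3 genes under 20 kb, Robo3, Efna3 and Efnb3, had no peak (Wilson interval 0 to 56.1%), against 6.16% of all genes of that length in WT and 9.0% in 3xTg. Within each length class the interval for the 40 genes included the share of all genes in both lists.

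**Figure D3:**
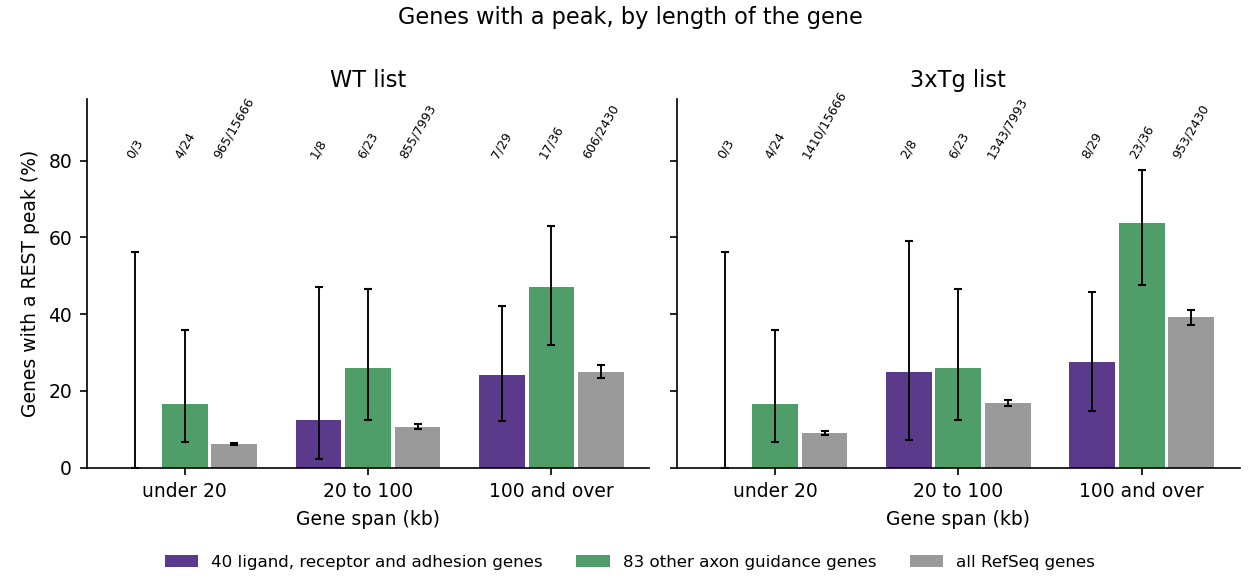
Percent of genes with a REST peak by gene span, in the WT list (left) and the 3xTg list (right), for the 40 genes, 83 other axon guidance genes and all RefSeq genes. Bars give the share, lines its 95% Wilson interval and the fractions above the number with a peak of the number in the class; among genes of 100 kb and over the 40 genes stand at 24.1% and 27.6% and the other axon guidance genes at 47.2% and 63.9%.

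Counted per length of gene body, the 40 genes held 1.15 WT summits and 1.51 3xTg summits per Mb over 11.3 Mb. All RefSeq genes held 1.57 and 2.73, and genes of 100 kb and over held 1.26 and 2.43. The nearest summit to any start site of the 40 genes lay at a median of 248 kb in WT and 226 kb in 3xTg, against 217 and 132 kb over all genes. For the 29 genes without a peak, the distance from the gene to the nearest WT peak ranged from 19.0 kb at Efnb3 to 3338 kb at Epha7, with a median of 365 kb. To the nearest 3xTg peak it ranged from 12.3 kb at Sema5a to 2403 kb at Epha7, with a median of 241 kb. Epha7, an ephrin receptor gene, was thus the farthest from a peak in both lists.

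Of the 13 WT peaks at the 40 genes, 10 (76.9%) overlapped a 3xTg peak, against 83.3% of all WT peaks. Of the 17 3xTg peaks, 10 (58.8%) overlapped a WT peak, against 49.0% of all 3xTg peaks. The 3 WT-only peaks, at Cntn4, Unc5d and Plxna2, had fold enrichments of 6.05 to 6.47. The 7 3xTg-only peaks, at Slit3, Robo2 (2), Neo1, Unc5d, Cntn4 and Cntn2, had fold enrichments of 8.63 to 16.4. This split depended on the lengths of the lists: with as many 3xTg peaks as WT peaks, 6 peaks at the 40 genes were WT-only and 2 were 3xTg-only. No share over all peaks at equal lengths stands beside these counts, so they do not set the 40 genes apart from all peaks.

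For the 10 shared pairs, the fold enrichment in the 3xTg list was higher than that in the WT list in all 10, by a median of 1.74 times (range 1.26 to 2.69). Over all 2504 shared WT peaks it was higher in 2492, by a median of 1.70 times. The 3xTg list holds no value under 8.50, and 10 of the 13 WT peaks lay under it, as did 68.4% of all WT peaks. Both values include WT-only peaks, which have no pair. A shared WT peak under 8.50 can pair only with a higher 3xTg value, so its direction was fixed by the lists. Among the 10 pairs, this did not apply to the Robo2 peak on the repeat (25.9 in WT). Nor did it apply to the Cntn4 peak in intron 2 and the Cntn4 peak in intron 8 with 8.51 in WT. It applied to all other pairs, and the medians are not measures of a rise in binding. Because nearly all shared peaks had a higher value in 3xTg, the position within the list was also compared. The 3xTg list is longer, which alone can change a percent rank, and the rank in 3xTg minus that in WT had a median of -8.36 percentage points over all 2504 and -7.18 over the 10 pairs. Of the 10 pairs, 7 stood nearer the top of the 3xTg list than of the WT list, against 1931 of all 2504. The Robo2 peak near the internal start site stood 58.0% of the way down the WT list and 11.3% of the way down the 3xTg list. The Cntn4 start-site peak stood at 62.2% and 25.1%, Epha5 at 37.2% and 13.6%, and Unc5a at 32.1% and 12.4%. The pairs that stood lower in the 3xTg list were Unc5c (58.9% and 91.8%), Sema3a (53.2% and 65.8%) and 1 Cntn4 peak in intron 8 (31.4% and 47.8%). The numbers of reads behind the lists are not in them, so list length, depth, peak calling and genotype cannot be told apart in these differences.

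**Figure D4:**
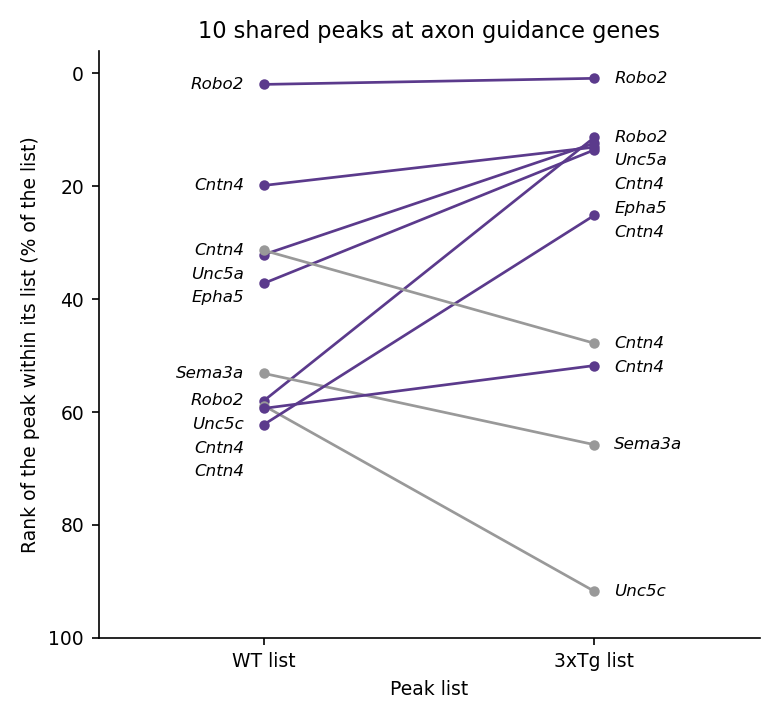
Rank of the 10 shared peaks at the 40 genes as percent of the length of their list, with 0 at the highest fold enrichment, in the WT list (left) and the 3xTg list (right). Lines in purple join the 7 pairs that stand nearer the top in the 3xTg list and grey lines the 3 that stand lower; the Robo2 peak on the repeat is at the top of both.

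An RE1 core was present in 0 of the 13 WT peaks (3 counts, the limit that a count of 0 allows, would be 23.1%, and the 95% Wilson interval is 0 to 22.8%), against 9.21% of all WT peaks, and in 1 of the 17 3xTg peaks (5.88%, 95% Wilson interval 1.05 to 27.0%), that of Unc5a, against 8.84% of all 3xTg peaks. Windows of the same width 10 kb downstream of all peaks held a core in 2.74% (WT) and 4.15% (3xTg). At these numbers of peaks, a share as low as that of the windows or as high as that of all peaks was not distinguishable. Mismatches of the best match ranged from 4 to 7 in the WT peaks and from 3 to 7 in the 3xTg peaks, with a median of 5 in both.

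In the genome as a whole, 191 sequences matched the core without a mismatch, of which 25.1% overlapped a WT peak and 28.8% a 3xTg peak. A further 929 had 1 mismatch, with 11.7% and 13.8%. At the 40 genes there were 6 such cores, in introns of Unc5d (3), Unc5c, Ephb1 and Slit1, all shown above. None of the 6 overlapped a WT peak. Unc5d core C overlapped the edge of the 3xTg-only Unc5d peak, 474 bases from its summit, without being wholly inside it. Unc5d core A, which has no mismatch, lay in intron 1 at 11.4 kb from the nearest WT summit and 137 kb from the nearest 3xTg summit. The 31 cores with 2 mismatches, at 19 of the 40 genes, overlapped no peak in either list, against 1.07% (WT) and 1.34% (3xTg) of the 6924 such sequences in the genome. In the table of promoter windows (250 bases before to 50 after a start site), 31 of the 40 genes were found, and 1 of them, Robo2, had a core (3.23%, against 2.12% of 27025 genes).

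The 83 other axon guidance genes listed for comparison comprised 28 ligands, 15 receptors, 7 adhesion molecules and 33 intracellular effectors, that is, the proteins that carry the signal from receptors to the cytoskeleton. Of these, 27 had a WT peak (32.5%, 95% Wilson interval 23.4 to 43.2%), against 9.30% of all genes. A 3xTg peak was found at 33 of the 83 (39.8%, 29.9 to 50.5%), against 14.2%. The 83 genes are also longer than most, with a median span of 50.1 kb against 13.5 kb over all genes. They were listed with earlier results of these data known, so the comparison is not independent of the data. By role, a WT peak and a 3xTg peak were found at 15 and 18 of the 33 intracellular effectors, 4 and 4 of the 28 ligands, 5 and 6 of the 15 receptors, and 3 and 5 of the 7 adhesion genes. Per Mb of gene body they held 2.18 WT and 3.66 3xTg summits, against 1.15 and 1.51 at the 40 genes.

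A peak within 1 kb of a start site in both lists was found at 8 of the 83 genes (9.64%) and 1 of the 40 (2.5%), against 3.97% of all genes. Among extracellular and membrane proteins these were Flrt3, a ligand of Unc5 receptors (fold enrichment 8.20 in WT and 22.1 in 3xTg), and Ephb3, an ephrin-B receptor (14.0 and 22.4). The effectors were Srgap2, a GTPase-activating protein downstream of Slit and Robo (7.13 and 11.7), Crmp1, a collapsin response mediator in semaphorin signalling (11.3 and 15.4), the adaptor Nck1 (7.19 and 8.52), the tyrosine kinase Abl1 (15.8 and 24.0), the actin regulator Enah (7.94 and 16.2) and the actin-severing protein Cfl1 (6.15 and 9.79). At Crmp1 the peaks in both lists held an RE1 core with 3 mismatches, and at Nck1 the 3xTg peak did. At Abl1, Ephb3 and Srgap2 the best match in both lists had 4 mismatches, as did that of the WT peak at Nck1. At Flrt3 and Enah it had 5 in both lists, and at Cfl1 it had 6 in WT and 4 in 3xTg.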

How the data were processed

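REST ChIP-seq of WT and 3xTg cortex (4 replicates and 1 input each) was used as the 2 deposited peak lists, 1 per genotype. Per the study's methods, the authors mapped single-end reads to mm10 by STAR, used MACS for peak calling, kept fold enrichment over 5 and q under 0.01 and removed blacklisted regions, while the submitters' processing notes name STAR for replicates 3 and 4 of each genotype and BWA for replicates 1 and 2 and the inputs. The deposited columns hold a score (10 times the −log10 q-value), the fold enrichment as a ratio to local background, the −log10 p-value and q-value, and the summit offset. No read counts are in the lists, so depth is unknown from them. The fold enrichment ranked peaks within a list.

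Peaks on chromosome Y (4 WT, 9 3xTg) were left out. Shared peaks overlapped by at least 1 base. Genes, introns and start sites were those of curated RefSeq transcripts (GRCm38.p6, the same assembly as mm10, 1 locus per symbol, without chromosome Y). Sequences and promoters were also from RefSeq, GRCm38.p6. Distances are from summits to start sites unless a peak edge is named. Shares have 95% Wilson intervals or, where named, the limit of 3 counts that a count of 0 allows, and no significance test was made. Peaks named with position were the 5 with the highest fold enrichment at the 40 genes in each list, those within 1 kb of a start site and those with an RE1 core, and some others were named after their values were seen. The 40 genes, the 83 other genes and all choices were made with earlier results of these data known. Alternatives are given in the closing section. Python 3.11.15, numpy 2.4.6, pandas 2.3.3, scipy 1.17.1 and matplotlib 3.10.9 were used. The searches for overlaps, RE1 matches and tandem repeats were tested on simulated data, and the other steps were not.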

Additional observations from a re-analysis of the deposited data

Results flagged for a closer look

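All mice were female, yet the deposited lists held 4 WT peaks and 9 3xTg peaks on chromosome Y. These peaks lie outside the comparisons above. None of the 40 axon guidance genes is on chromosome Y, and the origin of these peaks was not tested.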

How the results depend on the processing

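Across 18 results, 70 alternative values were computed, of which 47 stayed within 1.5 times the reported value and 23 did not. Each cause below is the construction of the setting, which lists fewer peaks or allows more or fewer matches. When each list kept only peaks with a fold enrichment over 10 (598 WT and 3212 3xTg peaks), 2 of the 40 genes had a WT peak and 6 a 3xTg peak, against 1.91% and 9.41% of all genes. Among those of 100 kb and over the counts were 2 and 5, no gene had a WT peak within 5 kb of a start site (0), 2 WT peaks and 2 3xTg peaks were shared, 0 were WT-only, and 7 other axon guidance genes had a WT peak. At this limit the counts by length, near start sites and by class of peak have no matching share over all genes or peaks. With as many 3xTg peaks as WT peaks by score, 5 genes had a 3xTg peak (Cntn4, Epha5, Robo2, Slit3 and Unc5a) against 9.09% of all genes, 4 of them of 100 kb and over, and 6 peaks were WT-only and 2 3xTg-only. In this setting the counts by length and by class of peak have no share over all genes or peaks beside them. When partners had to cover 50% of each other, 5 peaks were WT-only. Within 1 kb in place of 5 kb, 1 gene had a WT peak near a start site. For RE1, at most 4 mismatches gave 3 WT and 3 3xTg peaks with a core, at most 2 gave 0 in 3xTg, 100 bases on either side of the summit gave 0 in 3xTg, and 0 to 10 free bases with at most 1 mismatch (added after the data were seen) gave 1 in WT. Gene bodies alone, summits in place of peaks, q under 1e-05 (which removes no peak), all RefSeq transcripts, protein-coding genes as background, windows 10 kb upstream and the lists without tandem repeats moved no result by over 1.5 times. No paired analysis was possible because each list combines its replicates and carries no replicate column, and for the same reason no replicate could be left out.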
